A study of Mus musculus with 6 samples.

Results

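The Krüppel-like factors (KLFs) are zinc-finger transcription factors. Those described here are the 10 genes Klf2, Klf3, Klf4, Klf5, Klf6, Klf7, Klf9, Klf10, Klf13 and Klf15, chosen by symbol, and all 10 are among the 13706 genes of the expression table. Their messenger RNA was measured in primary dermal fibroblasts of the mouse with QuantSeq, which reads tags at the 3' ends of polyadenylated transcripts. There were 6 libraries, 2 in each of 3 groups. The control cells were Yap1 fl/fl; Wwtr1 fl/fl without a Cre transgene. Knockout (KO) cells had these alleles together with R26-CAG-CreER, which places a Cre that needs tamoxifen under the broadly active CAG promoter. KO + H-151 cells had the genotype of the KO cells and also received 1 µM H-151, an inhibitor of STING. All 3 groups, controls included, had 1 µM 4OH-tamoxifen in the medium for 72 hr. Yap1 and Wwtr1 encode YAP and TAZ, the coactivators restrained by the Hippo pathway, and STING is the adaptor that links cytosolic DNA to an interferon response. Active Cre and the loss of YAP and TAZ cannot be told apart, because the control cells lack Cre. No control cells received H-151, so its effect in cells with YAP and TAZ was not measured.

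KLF proteins share a carboxy-terminal set of zinc fingers that binds CACCC elements and GC boxes, and differ in their amino-terminal parts, which recruit different partners. One subgroup (Klf2, Klf4, Klf5, Klf6, Klf7) mostly activates transcription with acetyltransferases. A second (Klf3, Klf8, Klf12) represses through CtBP, and a further one (Klf9, Klf10, Klf11, Klf13, Klf16) recruits the SIN3A corepressor, while Klf15 stands apart from these subgroups. Several of them are induced quickly by serum, injury, shear stress or hormones, depending on the cell type.

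Between 12444986 and 15308100 reads per library fell in the table's genes, and 1 read equals 0.0625 to 0.0871 scaled CPM, the deposited unit (reads scaled to an effective library size). Members had between 22 reads (Klf15, KO replicate 2) and 9473 reads (Klf6, KO replicate 1) in a library. Wwtr1 stood at 213 and 218 scaled CPM in control, at 4.79 and 5.03 in KO and at 3.07 and 4.00 in KO + H-151. Yap1 stood at 122 and 128 in control, 66.4 and 68.3 in KO, and 45.3 and 42.4 in KO + H-151. Which exons were floxed is not in the labels, and 3' tags that lie outside a deletion are no check of it. Nor do the labels say if the libraries of a group are separate cultures or animals. The p-values then describe the spread among these libraries alone, which may be technical. A level with an error is the mean ± SD over the group's libraries (n = 2, in scaled CPM), and log2 changes, ± SE, are on the log2(scaled CPM + 1) scale, which understates the change of low genes. A change was called at an adjusted p of 0.05 (limma, Benjamini-Hochberg over all 13648 genes tested).

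In KO cells Klf4 and Klf6 rose against control and Klf3, Klf5 and Klf15 fell, so 2 of the 10 KLF genes rose, 3 fell and 5 did not pass. Of all genes tested, 18.2% were higher and 14.2% lower (32.4% in all). Klf4 was 2.72-fold and Klf6 1.78-fold the control level. With H-151, Klf2, Klf4, Klf6 and Klf7 were lower than in KO without it, and Klf3, Klf5 and Klf15 were higher, which makes 4 lower and 3 higher of 10, where 21.4% and 19.4% of all genes were called (40.8% in all). Any 2 of the 3 comparisons share a group of libraries, so opposite signs in them are not independent of each other. Total-count scaling called 1727 genes higher and 4054 lower in KO, where 2483 and 1938 were called as deposited, and 4770 and 1930 with H-151, against 2643 and 2923. Quantile normalization called 1914 and 2987, and 3546 and 2179. Against control, the KO + H-151 cells had lower Klf2, Klf4 and Klf6. In that comparison 0 members were called higher by limma (1, Klf15, at an unadjusted p under 0.05, and 1 by edgeR and 0 by DESeq2) and 3 lower, where 11.5% and 11.4% of all genes were called (22.9% in all). The median log2 change of the 10 members was -0.04, 0.01 and -0.13 in the 3 comparisons, and that of all genes tested was -0.01, 0.02 and 0.00048.

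**Figure D1:**
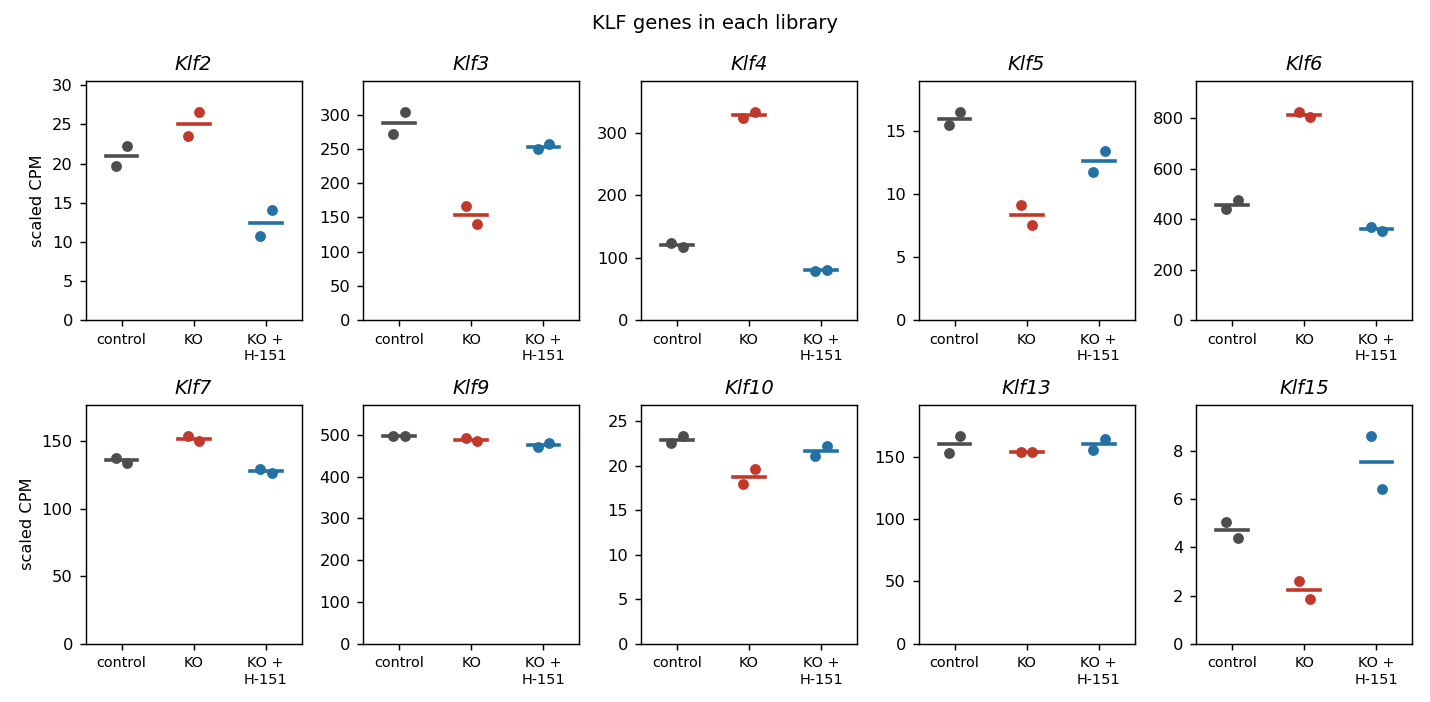
Level of each of the 10 KLF genes in scaled CPM (vertical axis, from 0, with its own scale per gene) in the 2 libraries of control, KO and KO + H-151 (points), with the group mean as a line. Klf4 and Klf6 peak in the KO libraries (means 328 and 814), Klf3, Klf5 and Klf15 are lowest there (means 154, 8.36 and 2.24), and Klf9 lies between 471 and 497 in all 6 libraries.

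Klf4, a factor that halts proliferation in several epithelia and is used in reprogramming to pluripotency, lies on chromosome 4 at 55527137 to 55532475, on the minus strand of GRCm38. Its level was 124 and 118 in control, 324 and 333 in KO, and 78.6 and 80.5 in KO + H-151. Both KO libraries were far above the control libraries, both KO + H-151 libraries were below them, and no groups overlapped. The KO change was 1.43 ± 0.07 (adjusted p = 3.77e-11, limma) and the change with H-151 was -2.03 ± 0.07 (adjusted p = 3.14e-13). Klf4 was thus 4.13-fold lower with the inhibitor than without it. Against control the KO + H-151 level differed by -0.60 ± 0.07 (adjusted p = 7.54e-06), a level 34.2% lower as a ratio of means.

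Klf6, an early response factor of injured tissue (chromosome 13, 5861489 to 5870393, plus strand), was measured at 440.4 and 475 in control. It stood at 825 and 804 in KO and at 371 and 355 in KO + H-151. The order of the groups was that of Klf4, again without overlap. Klf6 rose by 0.83 ± 0.07 in KO (adjusted p = 3.48e-08, limma) and changed by -1.16 ± 0.07 with H-151 (adjusted p = 3.80e-10). Against control the KO + H-151 cells differed by -0.33 ± 0.07 (adjusted p = 0.00136), a call lost when the prior variance had no trend (adjusted p = 0.0539, the highest of 19 alternatives, with a lowest of 3.48e-06).

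Klf2, a factor best known from endothelium and from quiescent T cells (chromosome 8, 72319062 to 72321654, plus strand), is the close relative of Klf4. Its level was 19.7 and 22.3 in control, 23.5 and 26.6 in KO, and 10.7 and 14.1 in KO + H-151. The KO libraries lay just above the control libraries, a difference of 0.25 that did not pass (95% interval -0.05 to 0.54, adjusted p = 0.194, limma). The KO + H-151 libraries lay below the other 4. With H-151 Klf2 fell by 0.97 ± 0.14 against KO (adjusted p = 3.21e-05), and its difference from control was -0.72 ± 0.14 (adjusted p = 0.00114).

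Klf5, a factor of proliferating epithelium and smooth muscle (chromosome 14, 99298691 to 99313412, plus strand), fell in KO, where Klf4 and Klf6 of its subgroup rose and Klf2 and Klf7 did not pass. Its level was 15.5 and 16.5 in control, 9.14 and 7.58 in KO, and 11.8 and 13.4 in KO + H-151. The KO libraries were the lowest, and the KO + H-151 libraries fell between KO and control. The KO change was -0.86 ± 0.15 (adjusted p = 0.000215, limma). With H-151 Klf5 rose by 0.54 ± 0.15 (adjusted p = 0.00715). That call was lost without KO replicate 2 (adjusted p = 0.0854) or without KO + H-151 replicate 2 (0.0533), with a range over 19 alternatives of 0.00095 to 0.0854. Against control the difference of -0.32 (95% interval -0.63 to -0.01) did not pass (adjusted p = 0.131).

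Klf7, studied mostly in neurons (chromosome 1, 64029448 to 64122345, minus strand), had the smallest changes of this subgroup in both comparisons with KO. Its level was 138 and 133 in control, 154 and 149.98 in KO, and 129 and 126 in KO + H-151. The groups did not overlap, but the steps between them were small. The KO difference of 0.16 (95% interval 0.02 to 0.30) did not pass (adjusted p = 0.0739, limma) and was -0.00101 when each library was scaled to its own total. It was called in 4 of 19 alternatives, namely with 2 groups only (adjusted p = 0.0496), with the crossed replicate block added after seeing the data (0.0380), and without KO + H-151 replicate 1 (0.0488) or 2 (0.0487). With H-151 Klf7 fell by 0.25 ± 0.07 (adjusted p = 0.00707). Without KO replicate 1 this call was lost (adjusted p = 0.0690), as it was without a trend (0.0608), by scaling to totals (0.400) and by quantile normalization (0.558), with a lowest value of 0.00102 among the 19 alternatives.

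Klf3, a repressor that works through CtBP and restrains fat cell formation (chromosome 5, 64803521 to 64832901, plus strand), stood at 272 and 304 in control. In KO it was at 167 and 140.3, and in KO + H-151 at 249.6 and 258. The KO libraries were well below the other 4, and the KO + H-151 libraries lay just below the control libraries. The KO change was -0.90 ± 0.08 (adjusted p = 2.07e-07, limma), and Klf3 rose by 0.72 ± 0.08 with H-151 (adjusted p = 2.49e-06). The difference of -0.18 between KO + H-151 and control (95% interval -0.36 to -0.01) did not pass (adjusted p = 0.131).

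Klf15, which is induced by glucocorticoids and acts in fat cell formation and amino acid metabolism (chromosome 6, 90461043 to 90491803, plus strand), had the lowest tag count of the 10. Its level was 5.06 and 4.396 in control (132 reads in both libraries together), 2.61 and 1.87 in KO (52 reads), and 8.62 and 6.44 in KO + H-151 (235 reads). Each KO library was below, and each KO + H-151 library above, both control libraries. The KO change was -0.83 ± 0.20 (adjusted p = 0.00416, limma), lost without KO replicate 2 (adjusted p = 0.0667, the highest of 18 alternatives, with a lowest of 0.000463). With H-151 Klf15 rose by 1.39 ± 0.20 (adjusted p = 3.08e-05), the largest rise among the members in that comparison. KO + H-151 stood 0.57 ± 0.20 above control, which did not pass (adjusted p = 0.0509), and passed in 6 of the 18 alternatives, with adjusted p from 0.0229 to 0.322.

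The 3 members that can recruit SIN3A did not pass in any of the 3 comparisons as deposited. Klf9, a target of glucocorticoid and thyroid hormone receptors (chromosome 19, 23141226 to 23168129, plus strand), was at 497 and 496 in control, 491 and 485 in KO, and 471 and 479.9 in KO + H-151. Its KO difference was -0.02, with a 95% interval of -0.15 to 0.11, and its difference with H-151 was -0.04 (-0.17 to 0.09), which turned to 0.24 under quantile normalization (adjusted p = 0.00571, limma) and 0.14 under total-count scaling. Klf13, an activator of Ccl5 in T lymphocytes (chromosome 7, 63886351 to 63938915, minus strand), was at 153 and 167, at 154 and 154, and at 155 and 165. Its KO difference was -0.06 (95% interval -0.20 to 0.09), and its control libraries spanned the KO libraries. With H-151 its difference was 0.06 (-0.09 to 0.20), called at 0.23 with total-count scaling and at 0.26 with quantile normalization. Klf10, an early response gene of TGF-beta (chromosome 15, 38291464 to 38300711, minus strand), was at 22.5 and 23.3, at 17.9 and 19.6, and at 21.1 and 22.3. Its KO libraries were below the other 4, but the difference of -0.28 (95% interval -0.52 to -0.04) did not pass (adjusted p = 0.0724, limma). With H-151 its difference was 0.20 (-0.04 to 0.44, adjusted p = 0.174), called at 0.37 with total-count scaling (adjusted p = 0.0131). Each of the 3 was called lower in KO by total-count scaling, which put the median KO change of all genes at -0.16 (log2), and by quantile normalization, which put it at -0.10. The total-count shift with H-151 was 0.18.

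**Figure D2:**
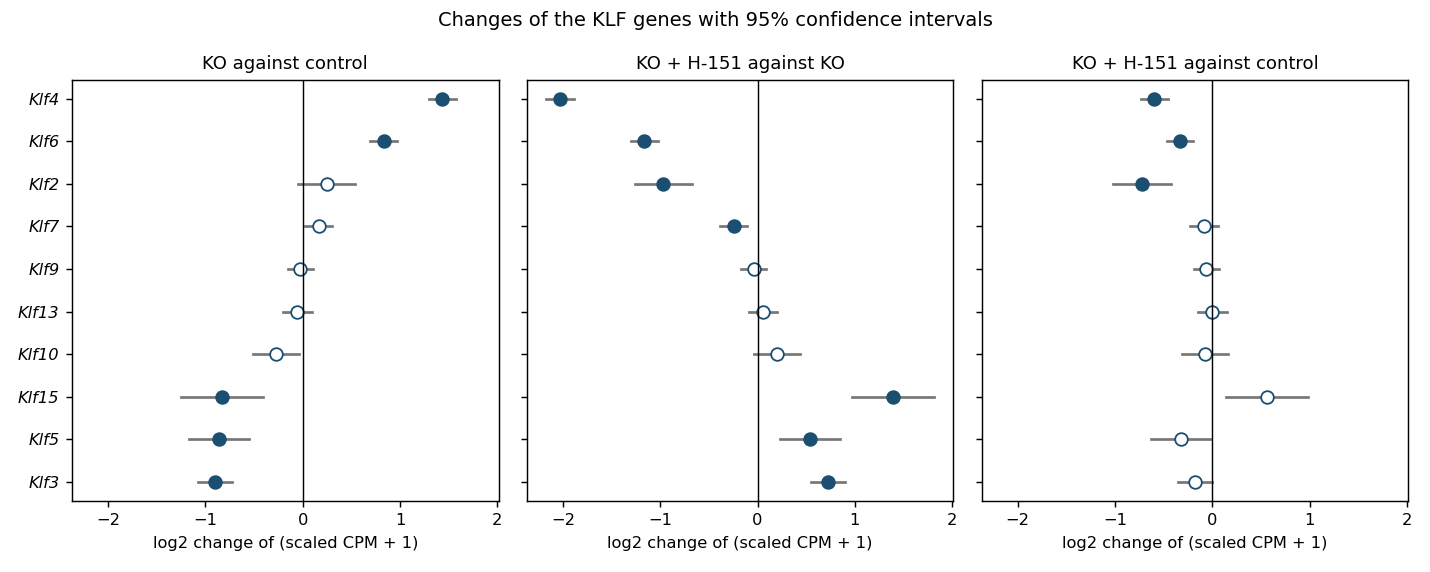
Log2 change of (scaled CPM + 1) of the 10 KLF genes (horizontal axis) for KO minus control, for KO + H-151 minus KO and for KO + H-151 minus control, with 95% confidence intervals as lines. Filled points passed the adjusted p of 0.05 and open points did not. Klf4 has the largest change in the first and second panels (1.43 and -2.03), and in the third panel the filled points are Klf2, Klf4 and Klf6.

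For 9 of the 10 members the 2 KO libraries lay on one side of the 2 control libraries, the exception being Klf13, where 66.9% of all genes tested were so separated. The KO + H-151 libraries were separated from the KO libraries for 10 of 10 members and from control for 9, beside 69.2% and 59% of all genes. Fewer cells of a kind and less RNA per cell cannot be told apart in these bulk libraries.

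The tags of the 10 genes summed to 1688 and 1759 scaled CPM in control, 2168 and 2122 in KO, and 1507 and 1520.1 in KO + H-151. QuantSeq gives tags per transcript end and not per length, and genes differ in how well their ends are captured, so shares of this sum describe tags. The part given by Klf6 was 26.5% for control, 37.97% for KO and 23.99% for KO + H-151. Klf4 gave 7.02%, 15.3% and 5.26%. The share of Klf3 was 16.7%, 7.16% and 16.8%, and that of Klf9 was 28.8%, 22.8% and 31.4%. In scaled CPM the KO libraries thus held more KLF tags in all, of which Klf4 and Klf6 made up a larger part. The whole columns also sum to more in KO (1083570 and 1081200) than in control (961724 and 970039). Part of the higher KLF sum therefore goes with the scaling.

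**Figure D3:**
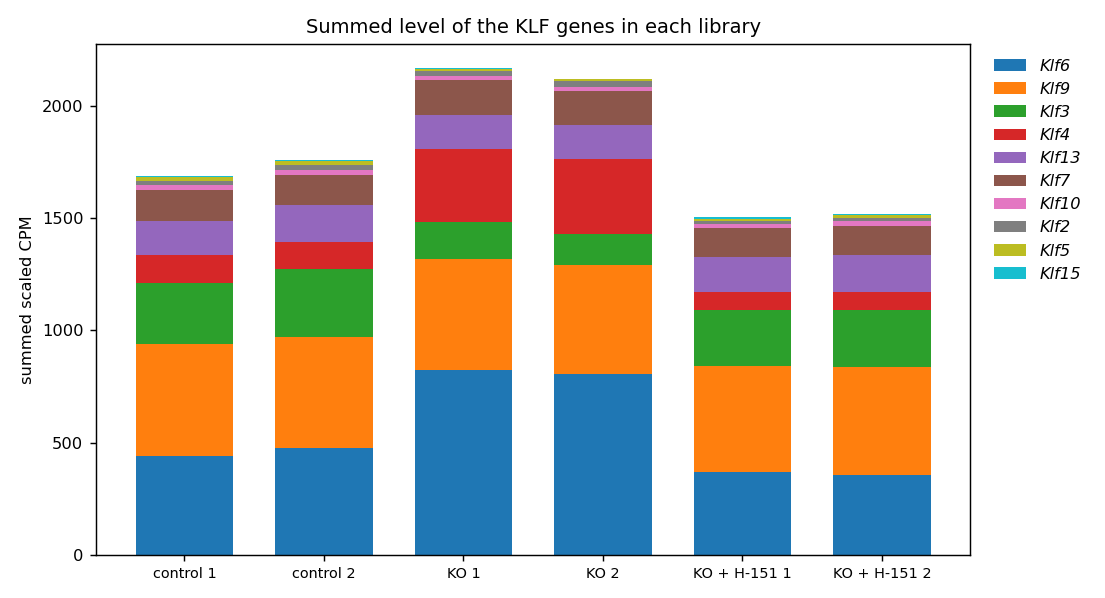
Stacked levels of the 10 KLF genes in scaled CPM (vertical axis, from 0) in each of the 6 libraries. The bars reach 2168 and 2122 in KO and at most 1759 in the other libraries, and the segments of Klf6 and Klf4 are wider in the KO bars while that of Klf3 is narrower.

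The bases before the start sites of 4 members are shown as examples. They are not the members with the largest changes, since Klf2 did not pass in KO and Klf15 is not shown. RefSeq (GRCm38.p6) gave a promoter for 8 of the 10 genes (Klf2, Klf3, Klf4, Klf6, Klf7, Klf9, Klf13 and Klf15). The 250 bases upstream of the start site were searched on both strands for CACCC, the core of a KLF element. Each line runs 5′ to 3′ along the gene's strand and ends at the base before the start site, with CACCC matches of either strand in capitals. The stretches are chr4:55532476-55532725 (minus strand) for Klf4, chr13:5861239-5861488 (plus) for Klf6, chr8:72318812-72319061 (plus) for Klf2 and chr5:64803271-64803520 (plus) for Klf3.
Klf4: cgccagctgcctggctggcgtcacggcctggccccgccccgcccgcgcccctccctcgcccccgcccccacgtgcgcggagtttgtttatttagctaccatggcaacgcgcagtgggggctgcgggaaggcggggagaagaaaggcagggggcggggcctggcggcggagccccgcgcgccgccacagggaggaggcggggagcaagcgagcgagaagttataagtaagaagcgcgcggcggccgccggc
Klf6: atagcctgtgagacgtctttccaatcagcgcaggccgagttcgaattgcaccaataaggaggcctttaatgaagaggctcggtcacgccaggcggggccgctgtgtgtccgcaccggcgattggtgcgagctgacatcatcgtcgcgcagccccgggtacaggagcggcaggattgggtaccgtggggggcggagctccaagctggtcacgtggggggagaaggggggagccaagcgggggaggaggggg
Klf2: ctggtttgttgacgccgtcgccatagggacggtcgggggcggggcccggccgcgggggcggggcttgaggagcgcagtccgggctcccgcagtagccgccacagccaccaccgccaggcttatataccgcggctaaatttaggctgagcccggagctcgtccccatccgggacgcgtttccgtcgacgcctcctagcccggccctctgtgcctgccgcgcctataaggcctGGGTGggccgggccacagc
Klf3: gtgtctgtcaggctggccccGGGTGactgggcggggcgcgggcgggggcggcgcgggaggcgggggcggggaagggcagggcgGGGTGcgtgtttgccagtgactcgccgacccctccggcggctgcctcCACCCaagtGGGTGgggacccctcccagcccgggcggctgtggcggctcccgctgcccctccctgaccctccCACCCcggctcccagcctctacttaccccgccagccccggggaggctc
Klf4 and Klf6, the members that rose in KO, held 0 matches in these stretches, while the other 6 genes held 1 to 5. The stretches of Klf7 and Klf15 lie inside the gene spans given above, before a start site within the span. Klf3 held 5, the first at position -230 and the last at position -48 from the start site. Of 10267 promoters of genes tested, 57.0% held the motif, and the contrast was noticed after the changes were known. The GC box, searched as GGGCGG, was found in 7 of 8 members (59.8% of genes tested), with 6 matches in Klf3 and 4 in Klf4, and 1 CACCC match of Klf3 and 1 of Klf13 share a base with a GC box. The TEAD core CATTCC was found in 0 of 8 (10.5% of genes tested), the cyclic AMP element TGACGTCA in 0 (2.73%), the interferon-stimulated response element in 0 (2.72%) and the CArG box in 0 (1.14%). The GC content of the 8 stretches ran from 59.2% to 78.4%, with a median of 71.4%, beside a median of 60% for genes tested. A match is only a match of letters, and its absence concerns only these windows.

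The genes that flank the members were examined for shared changes. Of the 20 nearest tested genes, 1 on each side of each member, 2 were higher and 2 lower in KO, and 3 and 3 changed with H-151. Beside the 5 members called in KO, 3 flanking genes were called, and all 3 moved opposite to the member (chosen for mention after their values were seen). Among them were Tbc1d1 beside Klf3, at 0.56, and Aldh1l1 beside Klf15, at 0.64. Beside the 7 members called with H-151, 5 flanking genes were called, of which 2 moved with the member (Tlr6, at 0.74, with Klf3 and Rad23b, at -0.22, with Klf4) and 3 opposite to it. One of the latter is Klf12, which lies 552769 bases from Klf5 on chromosome 14 and fell by 0.60 with H-151 (adjusted p = 0.0231, limma).

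Of 17 further genes of the KLF and SP family, 10 are in the table and were tested. In KO, Klf8 rose and Klf16, Sp3 and Sp7 fell, and with H-151 Klf16, Sp3 and Sp7 rose while Klf8 and Klf12 fell. That makes 1 higher and 3 lower of 10 in KO, where 18.2% and 14.2% of all genes tested were called. With H-151 it makes 3 higher and 2 lower, where 19.4% and 21.4% were called. Nothing particular to the family is read from these counts. The median changes of the 10 were -0.08 and 0.17. Klf12, Sp7 and Sp1 are named after their values were seen. Klf8, a CtBP-binding relative of Klf3 (chromosome X, 153225339 to 153398925), stood at 1.57 and 0.865 in control, 12.97 and 12.3 in KO, and 0.588 and 1.25 in KO + H-151. The KO libraries were the high ones, and the 2 other groups overlapped. It rose by 2.64 ± 0.22 in KO (adjusted p = 9.45e-08, limma), from 34 reads over both control libraries to 294, and changed by -2.85 ± 0.22 with H-151 (adjusted p = 3.08e-08). As a ratio of means the rise was 10.4-fold, and on the log2 scale it ran from 1.68 to 3.39 over 18 alternatives, where the lowest used a pseudocount of 4. Klf3 and Klf8 thus moved in opposite directions in both comparisons.

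Klf16, a SIN3A-binding relative of Klf9 and Klf13, had control, KO and KO + H-151 levels of 14.1 ± 2.45, 8.45 ± 1.59 and 12.7 ± 1.46. The KO change of -0.67 ± 0.17 (adjusted p = 0.00507, limma) was lost without control replicate 2 (0.0911) or KO replicate 2 (0.0965), with a lowest of 0.000138 over 19 alternatives. The rise of 0.54 ± 0.17 with H-151 (adjusted p = 0.0151) was lost without KO replicate 2 (0.181), without KO + H-151 replicate 2 (0.0892) and without a trend (0.0503). Sp3, a ubiquitous GC-box factor, stood at 70.5 ± 7.79, 45.2 ± 2.46 and 57.4 ± 3.06, a KO change of -0.63 ± 0.09 (adjusted p = 5.08e-05). It rose by 0.34 ± 0.09 with H-151 (adjusted p = 0.00763), lost without KO replicate 1 (0.0976) or without a trend (0.0583), with a lowest of 0.000266. Sp1, which binds the same boxes, stood at 154 ± 2.45, 144 ± 5.17 and 145 ± 4.70, with a KO difference of -0.10 (95% interval -0.24 to 0.05).

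**Figure D4:**
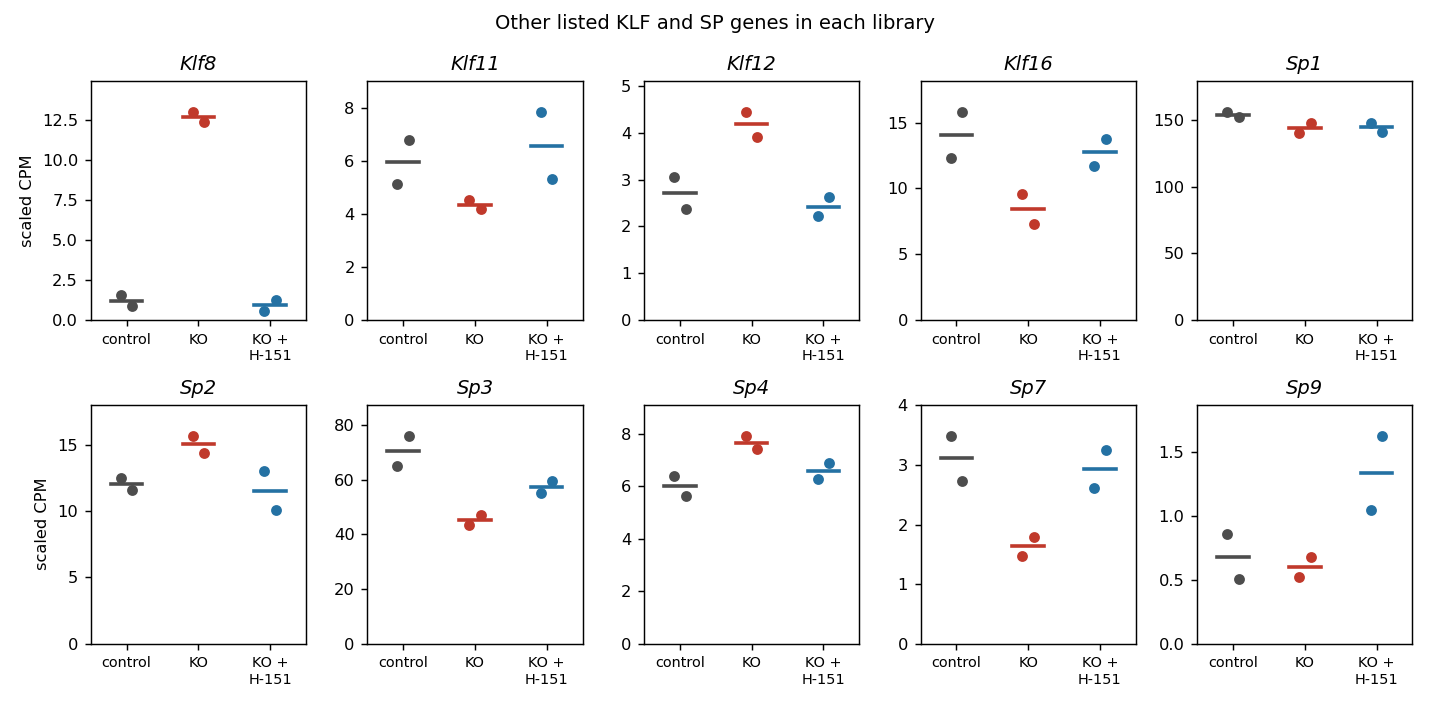
Level of the 10 other listed KLF and SP genes in scaled CPM (vertical axis, from 0, with its own scale per gene) in the 2 libraries of control, KO and KO + H-151 (points), with the group mean as a line. Klf8 is at 12.3 and 12.97 in the KO libraries and at 1.57 or less in the other 4.

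The counts of the lists that follow stand beside 18.2% of all genes higher and 14.2% lower in KO (32.4% in all), and 19.4% and 21.4% with H-151 (40.8% in all). Nothing particular to a list is read from its count. Among 14 KLF cofactors and ubiquitin ligases, 3 rose and 1 fell in KO (median 0.04), and 2 rose and 3 fell with H-151 (median -0.0041). The acetyltransferase Kat2b stood at 38.7 ± 4.38, 58.3 ± 3.71 and 36.8 ± 4.42 in control, KO and KO + H-151 (0.58 ± 0.11 in KO and -0.65 ± 0.11 with H-151). The ligase Smurf1 stood at 46.1 ± 0.320, 64.9 ± 0.650 and 45.9 ± 2.01, and Wwp1, a ligase that targets Klf2 and Klf5, at 55.9 ± 0.624, 46.1 ± 0.355 and 65.6 ± 0.681. The KO call of Wwp1 (adjusted p = 0.0138, limma) was lost when control replicate 1 (0.0585) or 2 (0.0844), or KO replicate 1 (0.0660) or 2 (0.0810), was left out, and also without a trend (0.05001) and by DESeq2 (0.0637), with a lowest of 0.000409 over 19 alternatives.

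The MEK5-ERK5-MEF2 pathway is a known inducer of Klf2 and Klf4. Of 11 genes listed for it, 3 rose and 3 fell in KO (median 0.04), and 4 rose and 3 fell with H-151 (median 0.04). The list holds genes that restrain the pathway as well as its members, so these counts give no direction of the pathway. Mapk7, which encodes ERK5, was at 34.0 and 38.6 in control, 21.3 and 24.9 in KO, and 34.3 and 34.4 in KO + H-151. It was lowest where Klf4 was highest, but only its mRNA was measured. A part of ERK5 in the KLF changes was not tested. Mef2c, a transcription factor downstream of ERK5, rose in KO from 36.8 ± 0.449 to 66.2 ± 1.22 (0.83 ± 0.09, adjusted p = 1.17e-06, limma). It stood at 55.1 ± 4.98 in KO + H-151. That difference from KO (-0.26, adjusted p = 0.0236) was lost without KO replicate 1 (0.0886), KO replicate 2 (0.133) or KO + H-151 replicate 1 (0.181), and was also not called by quantile normalization (0.309), total-count scaling (0.418), without a trend (0.0786) or by DESeq2 (0.0560), with a lowest of 0.00664. Hdac5, a deacetylase that binds MEF2 proteins, stood at 72.0 ± 5.22, 68.4 ± 3.75 and 95.3 ± 2.06 (0.47 ± 0.08 with H-151).

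Several KLF genes respond to hormones or serum, so lists of such genes were set beside them. Of 12 glucocorticoid response genes 4 rose and 7 fell in KO (median -0.28), and 3 rose and 5 fell with H-151 (median -0.13). The glutamine synthetase gene Glul stood at 93.2 ± 11.4, 56.9 ± 5.46 and 128 ± 24.4, the order of the group means of Klf15. The EGF receptor inhibitor Errfi1 stood at 17.4 ± 0.209, 40.9 ± 2.22 and 14.5 ± 2.48, the group order of Klf4, whereas Cebpd was lowest in KO + H-151 (240.3 ± 7.50, 199 ± 4.50 and 123 ± 9.66). The KO call of Cebpd (adjusted p = 0.00704, limma) was lost without control replicate 2 (0.0746), KO replicate 1 (0.0859) or a trend (0.0807), with a lowest of 0.000142. Of 18 immediate early genes listed, 8 rose and 6 fell in KO (median 0.13), and 4 rose and 10 fell with H-151 (median -0.45). Atf3 stood at 14.2 ± 0.829, 68.4 ± 0.0870 and 23.7 ± 2.29, and the AP-1 gene Jun at 156 ± 4.11, 352 ± 1.008 and 145 ± 1.46. Fosl2, another AP-1 gene, had the reverse order (350 ± 10.5, 129 ± 6.03 and 293 ± 25.4).

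Of 13 genes of TGF-beta signalling 4 rose and 4 fell in KO (median -0.06), and 3 rose and 7 fell with H-151 (median -0.20). Skil, an early TGF-beta target and feedback repressor, stood at 36.1 ± 3.39, 57.4 ± 1.51 and 25.005 ± 3.35. The ligand gene Tgfb3 stood at 146 ± 4.596, 147 ± 12.9 and 83.0 ± 8.14. Of 14 clock genes 2 rose and 7 fell in KO (median -0.39), and 7 rose and 2 fell with H-151 (median 0.49). Nr1d2 stood at 63.3 ± 7.82, 108 ± 1.12 and 75.6 ± 6.95, Dbp at 56.3 ± 0.791, 39.6 ± 1.65 and 70.8 ± 11.6, and Nfil3 at 26.8 ± 2.71, 34.9 ± 0.180 and 18.7 ± 1.55. The KO call of Nfil3 (0.37 ± 0.11, adjusted p = 0.0175, limma) was lost without control replicate 1 (0.175), KO replicate 1 (0.102) or KO replicate 2 (0.0955), and under quantile normalization (0.0615) and total-count scaling (0.137), with a lowest of 0.00384.

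Of 10 listed genes known as targets of single KLF proteins in other cells, 3 rose and 3 fell in KO (median 0.01), and 5 rose and 2 fell with H-151 (median 0.24). Ccl5, the chemokine that Klf13 activates in T lymphocytes, rose from 2.48 ± 0.781 in control to 319 ± 6.56 in KO, and it stood at 0.487 ± 0.512 with H-151, while Klf13 itself stayed between 153 and 167 in all libraries. Thbd, the thrombomodulin gene that Klf2 and Klf4 activate in endothelium, fell in KO from 51.3 ± 8.08 to 20.4 ± 0.716 (-1.28 ± 0.11, adjusted p = 1.89e-07, limma), in the libraries with the highest Klf4. Pparg, the adipogenic nuclear receptor, stood at 41.4 ± 2.12, 25.4 ± 1.92 and 66.9 ± 5.64, the group order of Klf15. Whether KLF proteins act on Ccl5, Thbd or Pparg in these cells was not tested.

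Among 10177 named genes with a mean of at least 5 scaled CPM, the 3 closest to Klf4 in their 2 log2 changes (KO against control and KO + H-151 against KO, over the 6 libraries in 3 groups) were Tnik, Parp8 and Itga7. Their distances were 0.072, 0.084 and 0.142 log2 units. Tnik, a kinase gene, stood at 6.41 and 5.33, at 16.3 and 16.9, and at 2.88 and 3.81. Parp8 stood at 7.12 and 8.29, at 22.03 and 25.2, and at 5.68 and 4.82, and Itga7, an integrin gene, at 17.9 and 19.7, at 54.5 and 60.3, and at 10.98 and 14.4. In each of them, as in Klf4, the KO libraries were highest and the KO + H-151 libraries lowest. This order follows from choosing the genes by these 2 changes.

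The KLF genes are active in cell types other than fibroblasts, and markers of some of these moved with the groups. All 9 fibroblast markers were listed and summed to 32539 and 33088 scaled CPM in control, 37184 and 39103 in KO, and 26060.4 and 24097 in KO + H-151. The 9 genes were mixed, with 3 higher and 1 lower in KO, and 4 higher and 5 lower with H-151. Collagen genes weigh most in the sums. Col1a2, named after its values were seen, stood at 13002 ± 460, 15990 ± 164 and 10111 ± 512. Col1a1 rose in KO from 7409 ± 12.9 to 9476 ± 769.97, while Pdgfra fell from 156 ± 1.37 to 68.1 ± 3.20 and stood at 142 ± 2.82 in KO + H-151. The 10 macrophage markers summed to 411 and 342, to 435 and 449, and to 1068 and 886, with all 10 higher in KO + H-151 than in KO. The 7 listed of 8 adipocyte markers summed to 1602 and 1363, to 1200.2 and 1381, and to 4307 and 3202, also with all 7 higher with H-151, Pparg among them. Endothelial markers (7 listed of 8) summed to 19.9 and 18.2, to 13.8 and 12.7, and to 23.1 and 20.3. The order of these sums is that of Klf15 and not of Klf2 or Klf4, but the 7 genes were mixed, with 1 higher and 4 lower in KO and 4 higher and 0 lower with H-151 (1 lower at an unadjusted p under 0.05). Pecam1, Cdh5 and Emcn fell in KO to levels near the floor. In control, KO and KO + H-151, Pecam1 stood at 2.79, 0.302 and 4.09, and Cdh5 at 2.08, 0.387 and 2.45. Emcn stood at 2.47, 0.302 and 0.78, and its difference with H-151 did not pass (adjusted p = 0.199, limma). Kdr, a VEGF receptor gene, rose in KO from 3.58 ± 0.881 to 7.02 ± 0.317 (0.82, adjusted p = 0.00363, limma). Its level with H-151 was 4.81 ± 0.871, so that it was highest in KO, as Klf4 was, though its difference with H-151 did not pass (adjusted p = 0.0625). Vwf stood at 0.358, 0.602 and 1.76 in control, KO and KO + H-151. These genes other than Pecam1, Cdh5 and Emcn are named after their values were seen. Melanocyte and Schwann cell markers (7 listed of 9) summed to 57.97 and 47.9, to 133 and 147, and to 49.8 and 42.2, the order of the means of Klf4 and Klf6. Smooth muscle and pericyte markers (7 of 7) summed to 3613 and 4003, to 4289 and 3965, and to 2657 and 3407, and of 10 keratinocyte markers 1 was in the table, Krt10, at 7.69 to 10.97. Krt5, Krt14 and Trp63 are not among the genes analysed here. The part of these cells in the KLF changes was not tested.

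**Figure D5:**
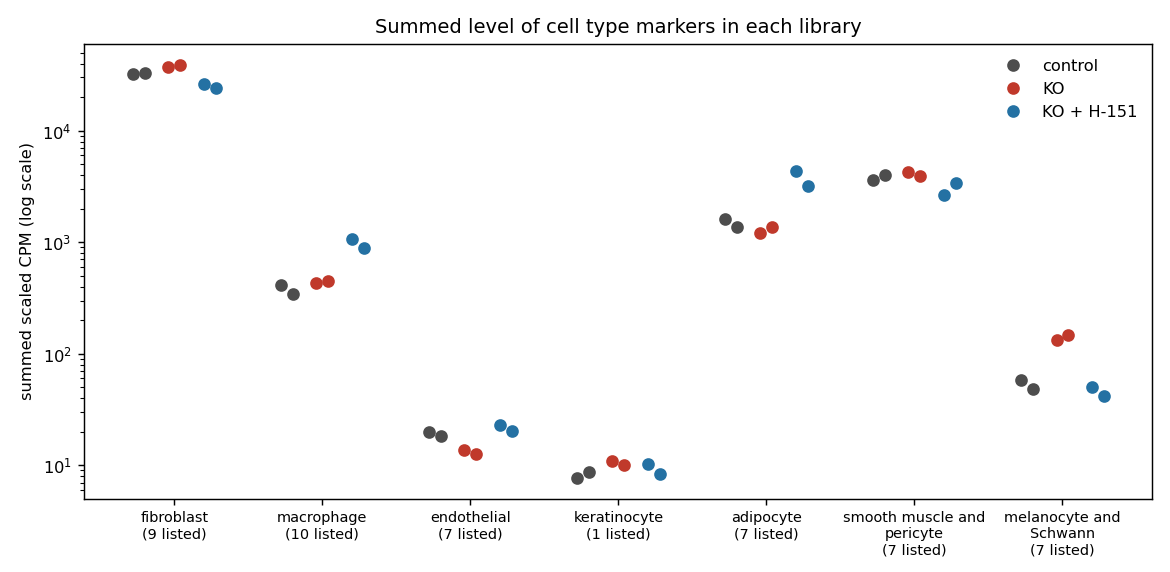
Summed scaled CPM of each cell type's listed markers (vertical axis, log scale) in the 2 libraries of control, KO and KO + H-151 (points). Macrophage and adipocyte sums are highest in KO + H-151 (886 and 1068, and 3202 and 4307), and the melanocyte and Schwann sum is highest in KO (133 and 147).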

How the data were processed

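Reads were processed with STAR 2.5.3a, featureCounts and edgeR on mm10, per the submitters' processing notes, which give no role or order. The gene annotation, the strand setting and any filter are not given in the sources used here. What the authors deposited is a signal per gene: CPM whose sums differ between columns (955838 to 1083570), taken here as scaled to an effective library size. All 6 columns were used. In each column 100% of values were whole multiples of 1 step within 0.0006, which recovered whole reads. The plan was written for plain CPM and was kept for this unit.

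Values were transformed to log2(value + 1). A gene was tested where 2 or more libraries reached 1 scaled CPM, which kept 13648 and left out 58. All 3 groups entered one fit in limma 3.58.1 (R 4.3.3), whose prior variance depends on expression (3 residual degrees of freedom, 15.7 after moderation), and p-values were adjusted over all genes tested. Alternatives on the recovered reads were edgeR 4.0.16 (quasi-likelihood) and DESeq2 1.42.0. The edgeR test called 2423 genes higher and 1851 lower in KO. Others were other pseudocounts, filters and scalings, a fit of 2 groups only, no variance trend, a replicate block and each library left out. The scripts were tested on simulated data.

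The members and lists were chosen with earlier results of these data known. All members are named, and of each other list up to 3 genes with the smallest p among those called in KO against control or KO + H-151 against KO. A few genes picked this way are counted but not reported here by name. Any further gene is named with a remark that it was picked once its values were known. Per1 and Dusp1 stand in 2 of the lists each, and Pparg in a target and a marker list. Positions and promoters are from RefSeq on GRCm38.p6, the same build as mm10, and strands from GENCODE vM21. Klf5 and Klf10 were not in the promoter table. No protein sequences were used here.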

Additional observations from a re-analysis of the deposited data

How the results depend on the processing

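The directions and calls of Klf3, Klf4, Klf5 and Klf6 in KO against control held under all alternatives in which they were tested. So did those of Klf2, Klf3, Klf4, Klf6 and Klf15 in KO + H-151 against KO. Klf15 and Klf8 were not tested with a minimum mean of 10. Quantile normalization and total-count scaling each gave 6 KLF genes lower in KO and 5 higher with H-151. Klf15 was the 1 member above control in KO + H-151 with a pseudocount of 4, total-count scaling, a replicate block, edgeR or without KO + H-151 replicate 2 (0 to 1 over the left-out libraries). Over all genes, those lower in KO numbered 1266 with a minimum mean of 10, 2987 with quantile normalization, 4054 with total-count scaling, 1217 by DESeq2 and 1165 to 2186 with 1 library left out. Those higher with H-151 numbered 1676 with a minimum mean of 10 and 4770 with total-count scaling, which left 1930 lower. Against control, KO + H-151 had 937 lower genes without a trend, and 951 to 1373 higher and 924 to 1499 lower with 1 library left out. Small changes turned direction. With total-count scaling Klf7 in KO was at -0.00101, Tgfb3 in KO at -0.16, Klf9 with H-151 at 0.14 and Klf13 in KO + H-151 against control at 0.0134. With quantile normalization Tgfb3 in KO was at -0.14, Klf9 at 0.24 with H-151 and 0.0197 against control, and Klf13 at 0.0555 against control. With 1 library left out, the KO values ran from -0.12 to 0.00424 for Klf13, -0.14 to 0.00118 for Hdac5 and -0.0812 to 0.0967 for Tgfb3, and those of KO + H-151 against control from -0.0605 to 0.0593 for Klf13 and -0.46 to 0.0409 for Klf8. The cause was not tested. A group left with 1 library is assumed to vary like the others. Deviations of libraries with the same replicate number correlated at -0.07, 0.15 and -0.13 between groups. With 2 libraries per group, such weak correlations cannot settle whether the numbers pair the libraries. The replicate block called 2430 genes higher and 1887 lower in KO. A crossed pairing, chosen after seeing the data, called 2891 and 2431. Depth limits Klf15 and Klf8, the latter at 9 to 22 reads in each control and KO + H-151 library.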
